A study of Mus musculus with 26 samples.

Results

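The transcripts of 10 genes that encode ZFP57, its corepressor KAP1 and the proteins acting with them in histone H3 lysine 9 (H3K9) methylation were examined in mouse ES cells with and without ZFP57. The genes were taken by symbol from the 24409 rows of the gene expression table. They are *Zfp57* and *Zfp445*, which encode DNA-binding zinc finger proteins, *Trim28*, which encodes KAP1, the H3K9 methyltransferase genes *Setdb1*, *Ehmt1* and *Ehmt2*, the SETDB1 partner gene *Atf7ip*, and the heterochromatin protein 1 (HP1) genes *Cbx1*, *Cbx3* and *Cbx5*. All 10 passed the filter on low values. RNA-seq had 3 wild-type (WT) and 2 ZFP57 KO (zygotic) libraries of male ES cells of strain C57BL/6J, derived from early embryos, karyotyped when established and grown in 2i and LIF medium for up to 15 passages, with passage numbers matched between genotypes. In the KO lines both copies of the gene were disrupted in coding exons 4 and 5, which hold the KRAB domain and the zinc fingers. Zygotic means that the embryo's own copies were lost, as opposed to a maternal and zygotic loss. The labels number the libraries ESC1 to ESC3 in WT and ESC1 and ESC2 in KO and do not say how the lines relate to each other, so that p-values measure the spread between these samples only. ES cells are pluripotent cells of the early embryo, and the ES cell markers *Pou5f1* (159.01 to 209.55 FPKM) and *Nanog* (181.40 to 203.97 FPKM) were high in all 5 libraries.

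KRAB zinc finger proteins bind particular DNA sequences and recruit KAP1. KAP1 carries no enzyme for H3K9 but brings in the methyltransferase SETDB1, which deposits H3K9 trimethylation and is stabilised in the nucleus by ATF7IP. HP1 proteins bind to the methylated histone. ZFP57 recognises a methylated hexanucleotide and, in early embryos and ES cells, keeps DNA methylation and H3K9 trimethylation at imprinting control regions. ZFP445 has a related role at imprints in the embryo. EHMT1 and EHMT2 (GLP and G9a) form a second methyltransferase complex, which places mainly H3K9 dimethylation.

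ZFP57 binding itself touched 1 of the 10 genes. The authors deposited 1423 ZFP57 peaks of C57BL/6J ES cells as positions in mm10, and 1 of the 10 genes, *Setdb1*, had a peak within 20 kb, against 4.25% of the 24288 genes of the table that could be placed on RefSeq annotation. The peak lay inside *Setdb1* in intron 8, between exons 8 and 9 of 22, 1910 and 1555 bp from these exons and 13694 bp from the start of the gene. The next closest was a peak 35.9 kb upstream of *Atf7ip*. Both are printed here since they are the only peaks within 50 kb of any of the 10 genes. Each sequence is written 5′ to 3′ on the plus strand of GRCm38 (mm10), and capitals mark the hexanucleotide TGCCGC or, read on the other strand, GCGGCA.
Setdb1 intron 8 peak, chr3:95343402-95343615: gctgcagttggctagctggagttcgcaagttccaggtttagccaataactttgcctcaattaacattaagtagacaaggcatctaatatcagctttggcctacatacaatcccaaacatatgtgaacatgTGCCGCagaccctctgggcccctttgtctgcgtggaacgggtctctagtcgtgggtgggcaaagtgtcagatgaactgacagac
Atf7ip upstream peak, central 300 bases, chr6:136482607-136482906: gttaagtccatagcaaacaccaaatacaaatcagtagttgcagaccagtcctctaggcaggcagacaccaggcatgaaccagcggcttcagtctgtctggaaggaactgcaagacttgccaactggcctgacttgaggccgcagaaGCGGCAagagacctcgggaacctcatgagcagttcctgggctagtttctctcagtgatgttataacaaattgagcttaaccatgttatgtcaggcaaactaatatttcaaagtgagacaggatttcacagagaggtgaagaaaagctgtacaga

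Each of these stretches held 1 hexanucleotide, with 5 CpG dinucleotides in the *Setdb1* peak and 4 in the *Atf7ip* stretch. The hexanucleotide on either strand was in 1309 of the 1423 peaks (92.0%), against 5.55% of intervals of the same width 2000 bp upstream. The *Setdb1* peak was absent from the shorter list of 743 peaks named for hybrid ES cells, which held the *Atf7ip* peak. *Setdb1* lies on the minus strand, so that the capitals in its peak read as GCGGCA along the transcript. The other 8 genes were farther from any peak. *Ehmt2* was 116.3 kb from its nearest peak, *Trim28* 280.4 kb, *Cbx3* 864.6 kb, *Ehmt1* 924.1 kb, *Zfp57* itself 978.7 kb, *Cbx1* 1258.4 kb, *Zfp445* 1526.4 kb and *Cbx5* 2648.6 kb. In the 250 bases before the annotated starts, RefSeq (GRCm38.p6) gave 15 promoter stretches for the 10 genes. The same hexanucleotide occurred in 2 of them, 1 of *Trim28* and 1 of *Ehmt2*, and in 8.7% of all 32851 such promoters. Neither of these promoters had a ZFP57 peak.

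The expression values were deposited as FPKM, fragments scaled for transcript length and library size, so that levels can be compared between genes as well as between libraries. In WT cells *Trim28* stood at the top with 157 FPKM ± 2.13 (SD, n = 3), at rank 169 of the 24409 genes. It was followed by *Cbx3*, *Cbx1* and *Zfp57* at 82.1, 78.1 and 72.9 FPKM, then *Cbx5* at 48.7, *Atf7ip* at 29.2, *Setdb1* at 21.0, *Zfp445* at 15.4 and *Ehmt2* at 12.4 FPKM. *Ehmt1* was the lowest at 8.86 FPKM ± 0.0451 (SD, n = 3), rank 4494. Every neighbouring pair in this WT order was apart in all 3 libraries. In KO cells *Trim28* and *Cbx3* still led and *Ehmt1* was still last, but *Cbx5* stood above *Cbx1*, and *Zfp57* had moved down to the level of *Setdb1*, whose KO range it overlapped. *Ehmt2* had moved up to that of *Zfp445*, again with overlapping KO ranges.

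**Figure D1:**
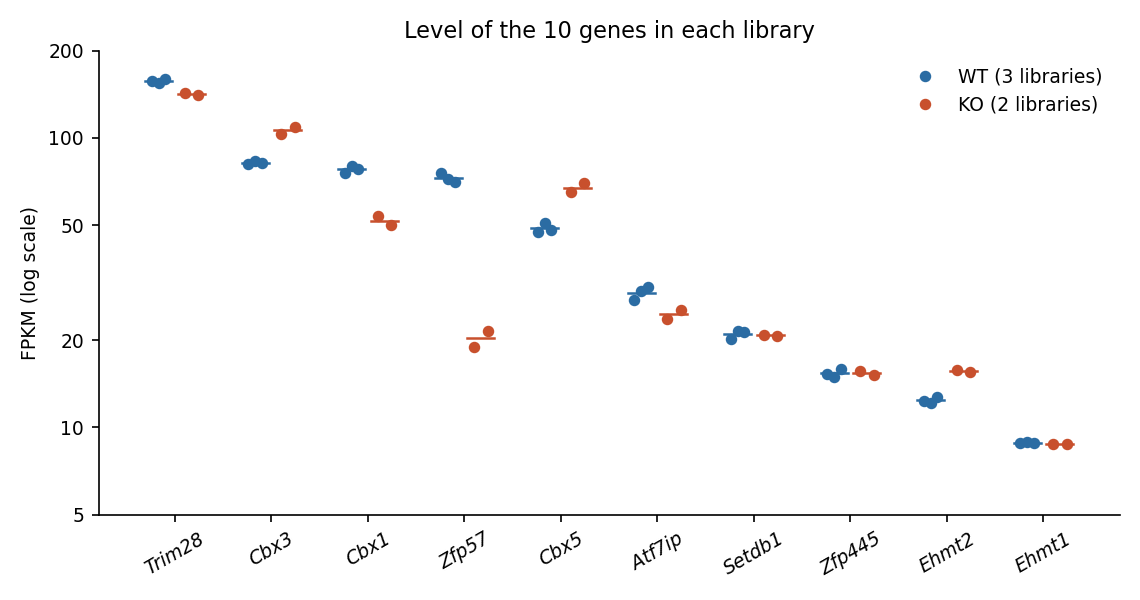
FPKM on a log scale (vertical axis) of the 10 genes (horizontal axis, ordered by WT mean) in the 3 WT and 2 KO libraries, with 1 point per library and a short line at the group mean. *Zfp57* and *Cbx1* sit lower in KO, *Cbx3*, *Cbx5* and *Ehmt2* sit higher, and *Setdb1* and *Zfp445* overlap.

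To ask how this machinery was transcribed without ZFP57, WT and KO libraries were compared with limma on log2(FPKM + 0.1) across the 14612 genes that averaged 0.1 FPKM or more. P-values were adjusted over all of these by the Benjamini-Hochberg method, with a threshold of 0.05. Fold changes are given on this scale as KO minus WT. Of the 10 genes, 7 passed the threshold, *Cbx3*, *Cbx5* and *Ehmt2* higher and *Zfp57*, *Cbx1*, *Trim28* and *Atf7ip* lower in KO. Among all genes tested 41.1% passed, 18.8% higher and 22.3% lower, so that a called gene was common in this comparison. The KO and WT ranges did not overlap for 8 of the 10 genes, the 7 above and *Ehmt1*, against 63.4% of all genes tested. The median log2 fold change was -0.01 for the 10 genes and -0.01 for all genes tested.

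**Figure D2:**
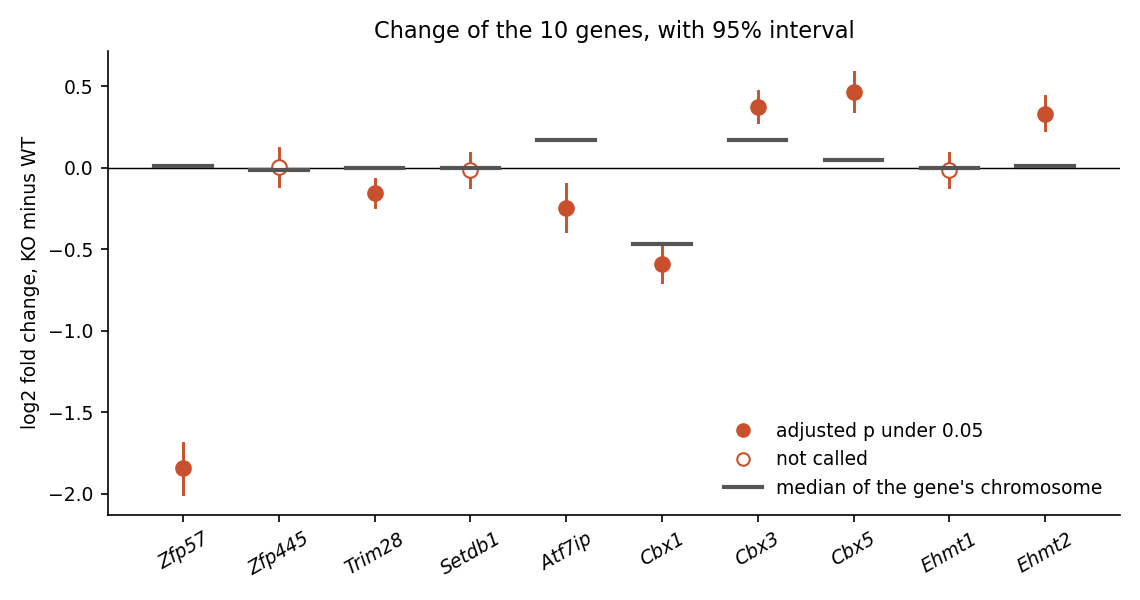
Log2 fold change (KO minus WT, on log2(FPKM + 0.1); points) of the 10 genes with 95% intervals (vertical lines), and the median of all tested genes of each gene's chromosome (grey bars). *Zfp57* lies far below the rest at -1.84, *Cbx1* lies close to the lowered median of chromosome 11, and open points mark the 3 genes that were not called.

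The targeted gene itself separated the genotypes. *Zfp57* (chromosome 17, 37001163 to 37010729, plus strand) had 75.94, 72.34 and 70.55 FPKM in WT and 19.00 and 21.62 FPKM in KO. Both KO libraries were far below all WT libraries. The KO mean was 27.8% of the WT mean, a log2 fold change of -1.84 (SE 0.064, 95% interval -2.00 to -1.69, limma adjusted p = 0.00023). The deposited value joins all exons of the gene, those that were disrupted and those that were not, and therefore does not show which part of the transcript remained. The last 2 exons make up 54.0% to 85.0% of the 4 curated RefSeq transcripts, and whether they are the disrupted ones was not established here. The 77 tested genes within 2 Mb of *Zfp57* had a median log2 fold change of -0.01.

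The profile of *Zfp57* over the 5 libraries was closest to those of *Acsf2*, *Ddr2* and *Tesc*, by Euclidean distance on log2(FPKM + 0.1) centred on the WT mean among 10663 genes that averaged 1 FPKM or more. Their distances were 0.19, 0.21 and 0.24. For the low genes *Ddr2* and *Tesc* this closeness depends on the pseudocount, since with a pseudocount of 1 their log2 fold changes were -1.10 and -1.07, against -1.80 for *Zfp57* and -1.63 for *Acsf2*, in place of -1.99, -1.75, -1.84 and -1.76. *Acsf2*, which encodes an acyl-CoA synthetase, had 19.81 to 22.80 FPKM in WT and 6.06 and 6.50 FPKM in KO. The collagen receptor gene *Ddr2* had 2.09 to 2.19 FPKM in WT and 0.44 and 0.50 FPKM in KO. *Tesc*, which encodes the calcium-binding protein tescalcin, fell from between 2.29 and 2.96 FPKM to 0.65 and 0.73 FPKM. *Acsf2* lies on chromosome 11, whose tested genes were lower as a whole, as given for *Cbx1*. With chromosome medians subtracted *Acsf2* was at -1.29, against -1.85 for *Zfp57*. The 3 genes were picked by their distance to *Zfp57*, so that their lower values in KO follow from the choice.

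*Zfp445*, the related imprint regulator, did not pass the test, and its ranges overlapped. Its FPKM were 15.35, 14.91 and 15.94 in WT and 15.67 and 15.21 in KO (chromosome 9, 122848910 to 122886851, minus strand). The log2 fold change was 0.00 (SE 0.047) with a 95% interval of -0.11 to 0.12, so that larger shifts in either direction fall outside the interval (limma adjusted p = 0.952). With *Zfp57* lower, the ratio of *Zfp57* to *Zfp445* went from 4.95, 4.85 and 4.43 in WT to 1.21 and 1.42 in KO. The groups did not overlap, and the exact two-sided permutation p was 0.1, the smallest that 3 against 2 libraries allow.

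*Trim28* encodes KAP1, the scaffold that KRAB zinc finger proteins share. Its FPKM were 157.22, 155.37 and 159.62 in WT and 142.44 and 140.20 in KO (chromosome 7, 13024152 to 13031032, plus strand). Both KO libraries were lower than all WT libraries by a small margin, at 89.8% of the WT mean. The log2 fold change was -0.16 (SE 0.034, 95% interval -0.24 to -0.07, limma adjusted p = 0.0139). In 4 of 15 alternative settings the adjusted p rose above the threshold, up to 0.12. The protein-coding gene *Gm31649* overlaps *Trim28* by 438 bp and has no row in the table, so that reads of the shared stretch may enter the *Trim28* value. *Chmp2a*, 973 bp away, was higher in KO, with a log2 fold change of 0.19 (limma adjusted p = 0.0142). *Trim28* remained far more abundant than *Zfp57*, with a ratio of 2.07 to 2.26 in WT and of 7.50 and 6.49 in KO.

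*Setdb1*, which encodes the methyltransferase that KAP1 recruits, did not pass the test although it carries a ZFP57 peak. It had 20.15, 21.61 and 21.31 FPKM in WT and 20.92 and 20.68 FPKM in KO (chromosome 3, 95323525 to 95357202, minus strand). The KO values lay within the WT range. The log2 fold change was -0.01 (SE 0.045, 95% interval -0.12 to 0.09, limma adjusted p = 0.82). Its partner gene *Atf7ip* had 27.60, 29.54 and 30.51 FPKM in WT and 23.67 and 25.55 FPKM in KO (chromosome 6, 136518789 to 136610850, plus strand). Both KO libraries were below all WT libraries, with a log2 fold change of -0.25 (SE 0.058, 95% interval -0.39 to -0.10, limma adjusted p = 0.018). The median of chromosome 6 was 0.17, and with chromosome medians subtracted the value was -0.42. In 5 of the 15 alternatives *Atf7ip* was no longer called. The lncRNA gene *LOC108169175*, which has no row in the table, overlaps *Atf7ip* by 1455 bp, so that shared reads may enter its value as well. *Setdb1* to *Atf7ip* ratios were 0.730, 0.732 and 0.699 in WT and 0.884 and 0.809 in KO (exact permutation p = 0.1).

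Of the HP1 genes, *Cbx1* was lower and *Cbx3* and *Cbx5* were higher in KO, and the *Cbx1* call was lost once the shift of its chromosome was subtracted. *Cbx1* (HP1 beta) had 75.95, 80.15 and 78.18 FPKM in WT and 53.55 and 50.05 FPKM in KO (chromosome 11, 96788680 to 96808982, plus strand). Both KO libraries were well below WT, at 66.3% of the WT mean, with a log2 fold change of -0.59 (SE 0.045, 95% interval -0.70 to -0.48, limma adjusted p = 0.00054). Its chromosome as a whole was lower in KO. Among the 1224 genes of chromosome 11 that were tested the median log2 fold change was -0.47 and 70.1% were called, and the 92 tested genes within 2 Mb of *Cbx1* had a median of -0.49. With chromosome medians subtracted, *Cbx1* was at -0.12 and its call was lost (limma adjusted p = 0.082). Of the genes of chromosome 11, 423 had a lower fold change than *Cbx1* and 800 a higher one. The transcribed pseudogene *Gm11517* overlaps *Cbx1* by 2825 bp and had 0.20 to 0.58 FPKM. The part that the shift of chromosome 11 has in the *Cbx1* value was not tested beyond this subtraction.

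*Cbx3* (HP1 gamma) had 81.04, 83.29 and 81.84 FPKM in WT and 103.52 and 109.41 FPKM in KO (chromosome 6, 51470154 to 51483704, plus strand). Both KO libraries were above all WT libraries, with a log2 fold change of 0.37 (SE 0.039, 95% interval 0.28 to 0.47, limma adjusted p = 0.00109). The 21 tested genes within 2 Mb had a median of 0.33, and with chromosome medians subtracted the value was 0.20 (limma adjusted p = 0.0099). *Hnrnpa2b1*, which begins 105 bp from *Cbx3* and encodes a splicing factor, was also higher, with a log2 fold change of 0.21 (limma adjusted p = 0.00731). *Cbx3* has 6 pseudogenes named after it in the RefSeq annotation, and pseudogenes under other names were not counted here for any gene. How reads that match several copies were counted is not given in the sources used here. The level of *Cbx3* is therefore less certain.

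*Cbx5* (HP1 alpha) had 47.18, 50.81 and 48.02 FPKM in WT and 64.97 and 69.68 FPKM in KO (chromosome 15, 103191546 to 103239904, minus strand). Its KO libraries were likewise above all WT libraries, with a log2 fold change of 0.47 (SE 0.050, 95% interval 0.35 to 0.59, limma adjusted p = 0.00121). The median of its chromosome was 0.05, and with chromosome medians subtracted *Cbx5* was at 0.42. *Hnrnpa1*, 38 bp away and far more abundant at 276.78 to 290.68 FPKM, did not pass the test, with a log2 fold change of 0.02 (limma adjusted p = 0.702). *Cbx3* and *Cbx5* were called under all 15 alternatives.

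The summed FPKM of the HP1 genes was 204, 214 and 208 in WT (mean 209 ± 5.09, SD, n = 3) and 222 and 229 in KO (mean 226 ± 5.02, SD, n = 2). *Cbx1* made up 37.2, 37.4 and 37.6% of the sum in WT and 24.1 and 21.8% in KO. *Cbx3* made up 38.9 to 39.7% in WT and 46.6 and 47.8% in KO, and *Cbx5* 23.1 to 23.7% in WT and 29.3 and 30.4% in KO. The groups were apart for the sum and for each share, with an exact two-sided permutation p of 0.1 in each of these 4 comparisons, the smallest possible. None of the 4 can reach 0.05 with this number of libraries. With the KO values divided by the median fold change of each gene's chromosome, an alternative chosen after the data were seen, the *Cbx1* share in KO was 32.4 and 29.7%, that of *Cbx3* 40.2 and 41.6% and that of *Cbx5* 27.4 and 28.8%. The differences in mean share were then -6.37, 1.56 and 4.81 percentage points in place of -14.42, 7.88 and 6.53. *Cbx3* to *Cbx1* ratios were 1.04 to 1.07 in WT, close to equal, and 1.93 and 2.19 in KO. *Cbx3* to *Cbx5* ratios, for the pair that moved the same way, were 1.64 to 1.72 in WT and 1.59 and 1.57 in KO (exact permutation p = 0.2).

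**Figure D3:**
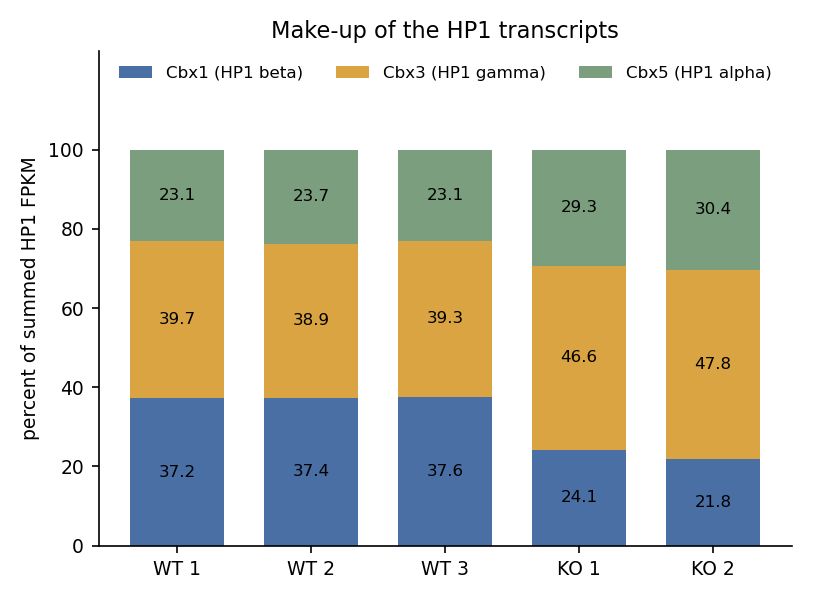
Share of *Cbx1*, *Cbx3* and *Cbx5* in the summed FPKM of the HP1 genes (vertical axis, percent) in each of the 3 WT and 2 KO libraries (bars). The *Cbx1* share is 37.2 to 37.6% in WT and 21.8 to 24.1% in KO.

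Of the second methyltransferase complex, 1 of the 2 subunit genes passed the test. *Ehmt2* (G9a) had 12.33, 12.19 and 12.70 FPKM in WT and 15.77 and 15.56 FPKM in KO (chromosome 17, 34898463 to 34914073, plus strand). The KO libraries were above all WT libraries, with a log2 fold change of 0.33 (SE 0.042, 95% interval 0.23 to 0.44, limma adjusted p = 0.00205), and the call held under all 15 alternatives. The 145 tested genes within 2 Mb of it had a median of -0.01. *Ehmt1* (GLP), its partner, had 8.82, 8.91 and 8.86 FPKM in WT and 8.78 and 8.77 FPKM in KO (chromosome 2, 24790769 to 24919643, minus strand). The KO values fell just under the WT range, but the log2 fold change was -0.01 (SE 0.045, 95% interval -0.12 to 0.09) and did not pass the test (limma adjusted p = 0.824). The *Ehmt2* to *Ehmt1* ratio was 1.37 to 1.43 in WT and 1.80 and 1.77 in KO (exact permutation p = 0.1). In all, 11 sums, shares and ratios were compared in this way, 10 of them at the smallest exact p of 0.1 (0.11 after Benjamini-Hochberg adjustment over the 11). They are not independent, since several reuse the same genes and some include the targeted gene *Zfp57*. Among all single genes tested, the WT and KO ranges did not overlap for 63.4%.

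The wider pathway was read from 8 lists with 67 genes, of which 66 passed the filter. The test called 31 (47.0%), 14 higher and 17 lower, beside 41.1% of all genes tested, with a median log2 fold change of -0.06. Without WT replicate 3 the test called 20 of them, and 4229 of all genes in place of 6002. Among the other H3K9 methyltransferases and their partners 2 of 7 were called, 1 in each direction. *Suv39h1*, which encodes a methyltransferase of pericentric heterochromatin, rose from 1.75 to 1.92 FPKM in WT to 2.26 and 2.63 FPKM in KO, a log2 fold change of 0.39 (limma adjusted p = 0.0277). This call was lost without any single WT replicate and without KO replicate 2 (limma adjusted p = 0.0594 to 0.132). *Atf7ip2*, a relative of *Atf7ip*, fell from 7.67 to 9.12 FPKM to 5.75 and 4.75 FPKM, a log2 fold change of -0.65 (limma adjusted p = 0.0053). It was the lowest value of the lists.

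Of the 9 H3K9 demethylase genes tested, 5 were called, 3 higher and 2 lower, with a median of 0.09. *Jmjd1c* rose from 23.87 to 25.04 FPKM to 32.05 and 34.27 FPKM, a log2 fold change of 0.43 (limma adjusted p = 0.00115). The plant homeodomain demethylase genes went apart, *Phf8* rising from 4.37 to 4.55 FPKM to 5.42 and 5.58 FPKM and *Kdm7a* falling from 3.12 to 3.66 FPKM to 2.12 and 2.62 FPKM. Their log2 fold changes were 0.30 and -0.49 (limma adjusted p = 0.00965 and 0.0194). The *Kdm7a* call was lost without WT replicate 1, WT replicate 3 or KO replicate 1 (limma adjusted p = 0.0547 to 0.087).

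KAP1 also recruits the NuRD deacetylase complex, in which 7 of 13 genes were called, 4 higher and 3 lower. *Mbd2*, which encodes a methyl-CpG-binding subunit, had 2.94 to 3.12 FPKM in WT and 4.11 and 5.64 FPKM in KO, a log2 fold change of 0.65 (limma adjusted p = 0.0111). The size rested on KO replicate 2, being 0.43 without it and 0.87 without KO replicate 1. The HUSH complex and its effector MORC2A, which act with SETDB1 on transcribed repeats, had 2 of 4 genes called, both lower. The KO libraries were below all WT libraries for all 4, as they were for 33.1% of all genes tested, and 1 of the 4, *Morc2a*, lies on chromosome 11, whose genes were lower as a whole. Of the 3 paralogues of *Trim28*, 1 was called, *Trim33*, from 18.06 to 19.37 FPKM in WT to 15.67 and 15.21 FPKM in KO (log2 fold change -0.29, limma adjusted p = 0.00515).

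SUMO modification of KAP1 helps it to bind SETDB1 and NuRD, and 6 of the 10 genes of this list were called, 4 higher and 2 lower. *Sumo2* fell from 146.80 to 152.70 FPKM in WT to 109.51 and 108.47 FPKM in KO, a log2 fold change of -0.46 (limma adjusted p = 0.00056). *Sumo2* lies on chromosome 11, and with chromosome medians subtracted it was at 0.02 and not called (limma adjusted p = 0.761). *Sumo3*, which encodes a nearly identical modifier, rose from 14.55 to 15.37 FPKM to 21.32 and 20.40 FPKM, a log2 fold change of 0.48 (limma adjusted p = 0.00081). *Pias3*, a SUMO ligase gene, rose from 2.51 to 2.91 FPKM to 4.32 and 3.73 FPKM, a log2 fold change of 0.58 (limma adjusted p = 0.00694).

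In the list of heterochromatin assembly, 6 of 10 genes were called, 2 higher and 4 lower. *H3f3b*, which encodes the histone variant H3.3, fell from 158.93 to 173.05 FPKM in WT to 122.61 and 121.41 FPKM in KO (log2 fold change -0.45, limma adjusted p = 0.00101). It also lies on chromosome 11, and with chromosome medians subtracted it was at 0.02 and not called (limma adjusted p = 0.703). Its sister gene *H3f3a* encodes the same protein and has 2 annotated pseudogenes named after it. *H3f3a* had 150.78 to 179.87 FPKM in WT and 170.78 and 157.93 FPKM in KO and did not pass (log2 fold change -0.01, limma adjusted p = 0.955). Of the 10 other KRAB zinc finger genes 2 were called, both lower. These were *Zfp809*, whose product silences proviruses in ES cells, from 18.82 to 20.94 FPKM in WT to 15.94 and 12.99 FPKM in KO, and *Zfp961*, from 25.21 to 25.77 FPKM to 21.43 and 16.87 FPKM. Their log2 fold changes were -0.48 and -0.42 (limma adjusted p = 0.00955 and 0.0159). The value of *Zfp961* was -0.25 without KO replicate 2 and -0.59 without KO replicate 1, and its call was lost without any single WT replicate (limma adjusted p = 0.0507 to 0.0553).

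**Figure D4:**
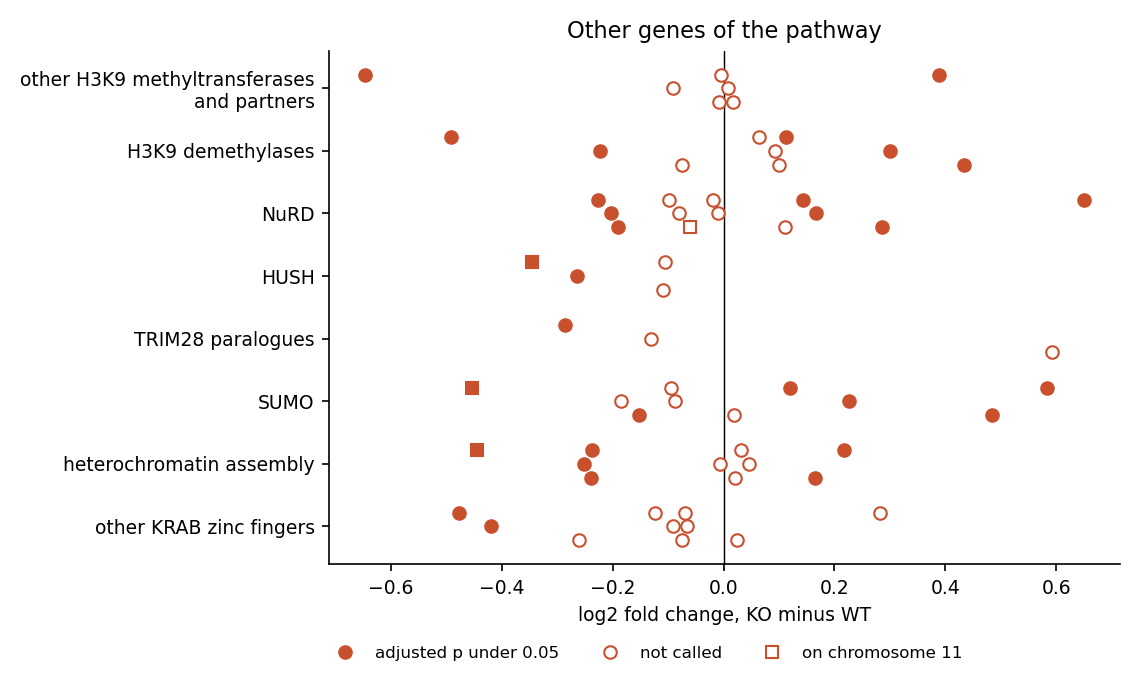
Log2 fold change (KO minus WT, horizontal axis) of the 66 tested genes of the 8 lists (rows), with 1 marker per gene, filled where called and square on chromosome 11. Called genes lie on both sides of 0 in most lists, and the 3 filled squares are *Morc2a*, *Sumo2* and *H3f3b*.

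Like *Cbx1*, *Sumo2*, *H3f3b* and *Morc2a* lie on chromosome 11. Of the 4 list genes tested there, 3 were called, all lower, beside 70.1% of all tested genes of that chromosome. Of the 62 on other chromosomes 28 were called, 14 in each direction. With chromosome medians subtracted, which moves all genes of a chromosome alike, *Morc2a* was at 0.13 and not called (limma adjusted p = 0.131), as *Sumo2* and *H3f3b* were not. Relative to their chromosome, none of these 3 genes thus passed the test in either direction. *Cbx1*, *Sumo2* and *H3f3b* each have a close relative on another chromosome. Without that subtraction *Cbx3*, *Cbx5* and *Sumo3* were higher in KO, and *H3f3a* did not pass the test. With chromosome medians subtracted, *Cbx3* was at 0.20, *Cbx5* at 0.42 and *Sumo3* at 0.48. The tested genes within 2 Mb of *Cbx3* were themselves higher, with a median of 0.33. This grouping was made with the values in view and was not tested.

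Markers of other cell types were near 0 in all libraries. The summed FPKM of 4 primitive endoderm markers was 0.32 to 0.40 in WT and 0.24 to 0.31 in KO, that of 4 trophoblast markers 0.12 to 0.32 and 0.32 to 0.38, and that of 5 fibroblast markers 0.34 to 0.36 and 0.16 to 0.33, with *Col3a1* at 0 in every library. The test covered 1 of the 4 endoderm, 2 of the 4 trophoblast and 1 of the 5 fibroblast markers, and none was called. Both KO libraries were above all WT libraries for the 2 trophoblast markers and below them for the endoderm marker. Of the 8 ES cell markers 5 were called, beside 41.1% of all genes tested. The sum of the 8 was 677 to 685 FPKM in WT and 733 to 788 FPKM in KO. The 4 higher ones were *Klf4*, *Tfcp2l1*, *Esrrb* and *Pou5f1*, with log2 fold changes of 0.74, 0.60, 0.42 and 0.27 (limma adjusted p = 0.00248, 0.00036, 0.0008 and 0.0127), and the *Pou5f1* call was lost without WT replicate 3 (0.0502). *Nanog* did not pass (log2 fold change -0.11, limma adjusted p = 0.0954), but was called lower after rescaling to TPM (0.0406) and with chromosome medians subtracted (0.00497). *Dppa3* was the only one of the 8 called lower without such rescaling, from 24.21 to 36.97 FPKM in WT to 9.04 and 4.43 FPKM in KO. The part of these ES cell marker differences in the changes above was not tested. In bulk RNA, fewer cells that express a gene and less RNA per cell cannot be told apart.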

How the data were processed

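Total RNA depleted of ribosomal RNA was sequenced in paired reads of 150 bp from 3 WT and 2 KO ES cell samples. The labels name FastQC 0.11.5, Trim Galore 0.2.7, BWA 0.6.2, Picard, MACS2 2.1.0 and STAR 2.5.2 with build mm10. The counter, the annotation and the strand setting are not given in the sources used here. Gene expression was deposited by the authors as FPKM with 2 decimals. ZFP57 peaks were deposited by the authors as start and end coordinates only (unit here: other), for peaks found independently in 2 or more of the 3 WT ChIP-seq samples, which had reads of 100 bp. The making of the hybrid list is not given in the sources used here.

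Depth was read from the steps between the FPKM values of genes of at most 400 bp. 1 fragment on 1 kb was worth 0.0170 to 0.0198 FPKM, and 91.7 to 94.8% of 408 to 454 low values per library were then whole within 0.1 fragment, against medians of 13.7 to 15.3% for other steps. This implies a depth of 50.6 to 58.7 (in units of 1000000 fragments) and 2290 to 34906 fragments per gene of the 10, a counting error of 0.54 to 2.09%. This error covers counting only.

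Genes averaging 0.1 FPKM or more were fitted with limma 3.58.1 (R 4.3.3, eBayes with trend) on log2(FPKM + 0.1), which understates changes of low genes. Shares and ratios were compared with an exact two-sided permutation test over libraries, and scipy 1.17.1 adjusted the resulting p-values. Genes were placed with RefSeq GRCm38.p6, the assembly that mm10 names, and 24288 of 24409 matched. Named are the 10 genes, the 6 highest and 6 lowest called list genes averaging 1 FPKM or more with groups that do not overlap, the 3 genes closest to *Zfp57* in profile, and the markers *Pou5f1* and *Nanog*. Neighbours of the 10 genes and *Trim33*, *Morc2a*, *H3f3a*, *Klf4*, *Tfcp2l1*, *Esrrb*, *Dppa3* and *Col3a1* fall outside this rule and were chosen after their values were seen. The genes and lists were chosen with earlier results of these data known. Equal replicate numbers did not pair samples. KAP1 and H3K9me3 ChIP-seq and the hybrid lines were not analysed here.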

Additional observations from a re-analysis of the deposited data

How the results depend on the processing

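Of 150 values of the 10 genes under 15 alternatives (pseudocounts, filters on low values, scaling, chromosome medians, variance model, a replicate block and single libraries left out), 134 kept their direction and side of the threshold and 10 lost their call, 5 of *Atf7ip*, 4 of *Trim28* and 1 of *Cbx1*. The other 6 changed sign near 0 in genes that were not called in any setting. *Zfp445* was at -0.02 after rescaling to TPM, -0.02 without WT replicate 2 and -0.02 without KO replicate 1 (range without single libraries -0.02 to 0.03), *Setdb1* at 0.01 without WT replicate 2 (range -0.04 to 0.01) and 0.00 with centring on the median log2 ratio, and *Ehmt1* at 0.00 with that centring. *Trim28* was not called without WT replicate 3 or KO replicate 2 (limma adjusted p = 0.0553 in both). *Atf7ip* was not called without WT replicate 2, WT replicate 3 or KO replicate 1 (limma adjusted p = 0.0632, 0.0588 and 0.0932). Both were also lost without the trend (0.0693 and 0.0575). Leaving out single libraries gave 5 to 7 called of the 10 genes, 20 to 26 list genes, lowest without WT replicate 3 against 31 with all libraries, and 4095 to 4775 of all genes. Differences in share of the HP1 sum ranged from -15.55 to -13.28 percentage points for *Cbx1*, 7.32 to 8.45 for *Cbx3* and 5.96 to 7.11 for *Cbx5*. Without single libraries, calls were also lost by *Suv39h1* (without WT replicates 1, 2 or 3 or KO replicate 2, limma adjusted p = 0.0594 to 0.132), *Kdm7a* (without WT replicates 1 or 3 or KO replicate 1, 0.0547 to 0.087), *Zfp961* (without any of the WT replicates, 0.0507 to 0.0553) and *Pou5f1* (without WT replicate 3, 0.0502). *Nanog* was called lower after rescaling to TPM and with chromosome medians subtracted (log2 fold changes of -0.13 and -0.28). With chromosome medians subtracted, *Sumo2* and *H3f3b* were at 0.02 and 0.02, near 0 and not called. With chromosome medians divided out of the KO values, which was chosen after seeing the data, the differences in share were -6.37 points for *Cbx1*, 1.56 for *Cbx3* and 4.81 for *Cbx5*. A window of 50 kb gave 2 of the 10 genes with a ZFP57 peak, and the hybrid list gave 0 within 20 kb. The cause was not tested.

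Deviations of same-numbered libraries correlated at -0.07 and -0.04, so the numbers are not taken as pairs. With the replicate block 3012 genes were called in place of 6002, 5 of the 10 genes in place of 7 (limma adjusted p = 0.122 for *Trim28* and 0.0593 for *Atf7ip*) and 9 list genes in place of 31. WT replicate 3 has no KO library of its number, so that it does not enter the difference under the block. The fold changes under the block are therefore those without WT replicate 3, and these settings are not separate checks. *Kdm7a*, *Zfp809*, *Mbd2*, *Pias3*, *Suv39h1*, *Phf8* and *Pou5f1* also lost their calls under the block (limma adjusted p = 0.0507 to 0.112). With 2 KO libraries no exact test could pass 0.05, and with 2 decimals in FPKM values near 0 rest on few fragments.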
